A study of Homo sapiens with 6 samples.

Results

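The diacylglycerol kinases (DGKs) add a phosphate to the membrane lipid diacylglycerol and so convert it to phosphatidic acid. They were examined as 9 genes, DGKA, DGKB, DGKD, DGKE, DGKG, DGKH, DGKI, DGKQ and DGKZ, of 59675 genes placed on chromosomes 1 to 22, X and Y. For each gene, every accessible-chromatin peak that overlapped the gene span plus 10 kb on either side was taken, in the GRCh38 genome build. These windows held 566 of the 879389 peaks called in the series, and merging overlapping peaks of all libraries gave 315 regions. The members were chosen by name, with earlier results of these data known.

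The assay was ATAC-seq, in which a transposase cuts open DNA and a pile of sequenced fragments, here called a peak, marks an accessible site. The cells were NCI-H1703, an established human cell line labelled as lung squamous cell carcinoma. In 3 libraries the long non-coding RNA DLGAP1-AS2 had been silenced (silenced DLGAP1-AS2; the titles carry the prefix ASO), and 3 libraries were controls (prefix NC). The title of the series ties DLGAP1-AS2 to phosphatidic acid synthesis, YAP signalling and resistance to chemotherapy, and DGKs are one of the routes to phosphatidic acid. No dose, time, culture or clone is given in the labels, so p-values measure only the spread between these libraries, which may be technical. How far the RNA was silenced is not analysed here.

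Diacylglycerol is a second messenger that recruits protein kinase C, protein kinase D and RASGRP exchange factors to membranes, and DGKs end that signal. The product, phosphatidic acid, is itself a signal and the precursor of other phospholipids. The family is sorted by domains: DGKA, DGKB and DGKG carry calcium-binding EF hands (type I), DGKD and DGKH a pleckstrin homology domain (type II), DGKE is the small type III enzyme with a preference for arachidonoyl diacylglycerol, DGKI and DGKZ carry ankyrin repeats (type IV), and DGKQ is type V.

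The lists held 91346 to 170882 peaks per library, and read totals are not known. The background coverage computed from the lists, a stand-in for depth, was lowest in silenced replicate 3 (0.237) and highest in control replicate 2 (0.464). In control replicate 2 only 2.46% of the peaks were lower than a height of 4, against 48.1% to 52.1% in the other libraries. Values in groups of 3 are in the order of replicates 1, 2 and 3. The height is the authors' pileup at a peak, and it is comparable within a library but not between libraries. Heights printed for both groups below are therefore descriptions and not comparisons. Of the 6 squamous markers examined, SOX2 had a peak within 1 kb of a listed start in all 6 libraries, whereas KRT5 and KRT6A had none in any and TP63, DSG3 and PKP1 had one in a single library each. Among the other markers, NKX2-1, SFTPC and NAPSA (alveolar), NEUROD1 (neuroendocrine), and COL1A1 and PDGFRA (fibroblast) had a peak in all 6. Genes without a listed start, here KRT6A, SFTPC and COL1A1, were judged by either end of the gene span.

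The RefSeq promoter table listed 22 starts for 8 of the 9 genes, each with its strand, and DGKQ is not in it. A start counted as covered when a peak came within 1 kb of it. For DGKQ the ends of the gene span were used instead. By this measure DGKA, DGKD, DGKE, DGKH, DGKQ and DGKZ had a covered start in all 6 libraries. Among 15842 protein-coding genes with a listed start, 62.6% had one in all 6 libraries and 17.2% in 0. DGKI had a covered start in 3 libraries, and DGKB and DGKG in 1 library each. The number of the 9 genes with a covered start was 8, 6 and 7 with silencing, against 7, 6 and 7 in the controls. The groups overlapped, and for 0 of the 9 genes did the covered start split the 2 groups completely. For protein-coding genes that happened in 0.0505% (silenced only) and 0.215% (control only).

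**Figure D1:**
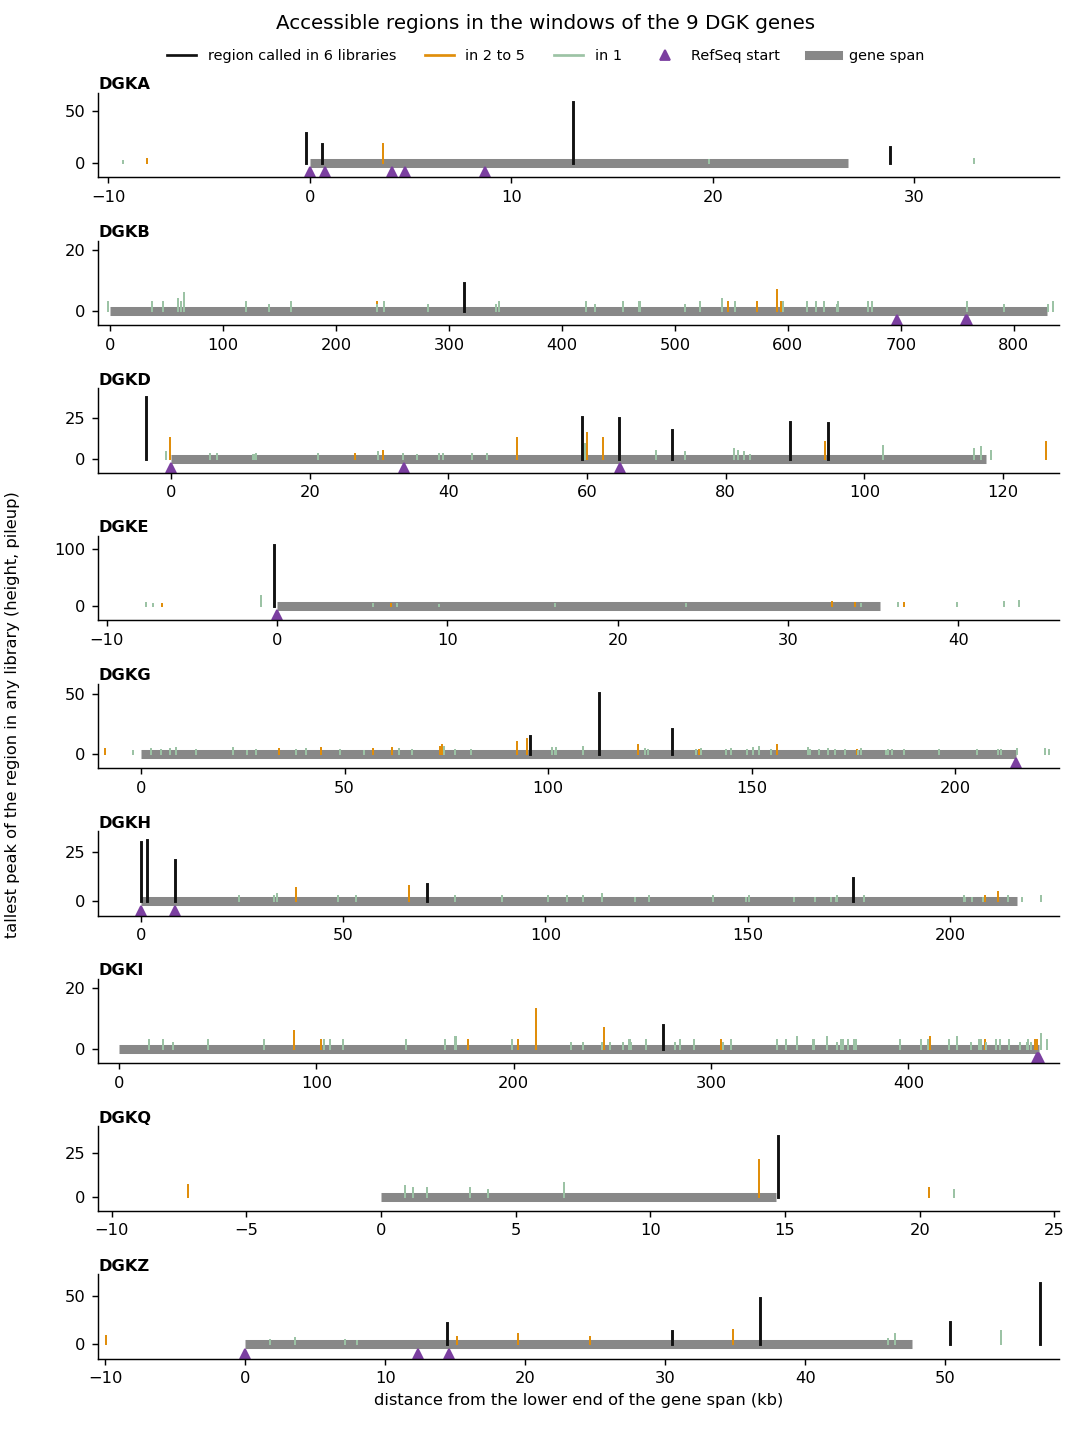
Each panel shows one gene window, with the distance from the lower end of the gene span in kb on the x axis and the height of the tallest peak of each merged region in any library on the y axis. Black bars are regions called in 6 libraries, orange bars in 2 to 5 and green bars in 1, grey is the gene span and triangles are RefSeq starts. DGKE has its 1 black bar at its start, reaching a height of 106, and DGKB and DGKI are filled with low bars.

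The covered start of DGKE was the strongest site of the family. The region, chr17:56833583-56834399, spans the single listed DGKE start and overlaps the span of the neighbouring gene C17orf67. Its heights were 70, 91 and 49 with silencing, against 106, 91 and 88 in the controls. As heights are not comparable between libraries, their order was not read as a difference. To compare libraries, the fold enrichment of each region was ranked within its library among the 37284 regions called in all 6 libraries, and a percentile near 100 is a strong region. The DGKE region lay at a percentile of 98.2 ± 1.09 (SD, n = 3) with silencing and at 98.3 ± 1.58 (SD, n = 3) without. Apart from this region, the DGKE window held 18 regions, of which 13 were called in a single library. Of all 19 DGKE regions that is 68.4%, beside 74.1% over all regions of the series.

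The 250 bases before the DGKE start are shown because they belong to the tallest peak. They are GC-rich (76.4%) and carry 6 GC boxes (GGGCGG on either strand, the core bound by SP1 and related factors), which overlap in 1 place. Here and in the other sequences, capitals mark matches on either strand to any motif searched: GGGCGG, CCGGAAGT (ETS factors), CCAAT (NF-Y), TATAAA (TBP), GGAATG (TEAD factors) and TGANTCA (AP-1), and the palindromic NRF1 motif. All sequences are RefSeq, build GRCh38.p14, written 5′ to 3′ on the strand of the gene, and this one is chr17:56833901-56834150, plus strand.
DGKE: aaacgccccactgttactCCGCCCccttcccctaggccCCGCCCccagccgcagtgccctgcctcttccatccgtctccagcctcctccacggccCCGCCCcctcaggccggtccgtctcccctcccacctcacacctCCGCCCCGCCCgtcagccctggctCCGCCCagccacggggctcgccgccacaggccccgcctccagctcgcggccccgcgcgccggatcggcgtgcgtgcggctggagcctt
A GC box was found in 42.5% of the 34943 distinct windows of this length before all listed starts, and in 70.2% of those under a peak in all 6 libraries. In the DGK genes, 11 of the 22 windows held one.

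DGKZ, a type IV enzyme with a nuclear form, was accessible at the third of its listed starts and not at the others. At the first and the second DGKZ start, positions 46332926 and 46345267 of chromosome 11, 0 of 6 libraries had a peak within 1 kb. Over the third, at 46347463, all 6 did. The region there, chr11:46347021-46347711, had heights of 22, 22 and 6 with silencing, against 14, 18 and 19 in the controls. These heights were not compared between libraries. By percentile, silenced replicates 1 and 2 ranked above all control libraries, and silenced replicate 3 ranked below them. The mean percentile was 45.7 ± 18.0 (SD, n = 3) with silencing. It was 38.7 ± 5.08 (SD, n = 3) without, so the groups differed by less than the SD of the silenced libraries.

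The closed and the open start of DGKZ are shown next to each other because both are GC-rich, with 73.2% GC before the first and 79.6% before the third start, and both hold 3 GC boxes. The first (chr11:46332676-46332925, plus strand) also holds 1 CCAAT box.
DGKZ start 1: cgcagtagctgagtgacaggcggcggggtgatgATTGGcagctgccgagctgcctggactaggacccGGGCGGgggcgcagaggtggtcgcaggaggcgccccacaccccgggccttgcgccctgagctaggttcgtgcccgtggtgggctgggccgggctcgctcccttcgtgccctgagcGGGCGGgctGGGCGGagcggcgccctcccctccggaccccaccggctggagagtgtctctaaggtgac
DGKZ start 3: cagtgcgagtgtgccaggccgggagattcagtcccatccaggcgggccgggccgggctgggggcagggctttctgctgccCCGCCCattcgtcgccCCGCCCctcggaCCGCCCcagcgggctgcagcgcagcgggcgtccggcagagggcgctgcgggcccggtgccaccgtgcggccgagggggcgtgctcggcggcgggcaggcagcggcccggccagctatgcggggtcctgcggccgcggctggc
The sequence before the open start is chr11:46347213-46347462, plus strand. The number of GC boxes was thus the same before the start without and the start with a peak. In all listed windows a CCAAT box was found in 32.0%.

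DGKZ also had shared regions inside the gene and beyond its end. A region at chr11:46369455-46369842, inside the span, had heights of 28, 44 and 20 with silencing, against 31, 48 and 48 in the controls. The tallest region of the window, chr11:46389378-46390030, lay outside the DGKZ span and inside CHRM4, a muscarinic receptor gene, with heights of 40, 63 and 31 with silencing, against 51, 60 and 54 in the controls. The tallest site counted for DGKZ thus lay in a neighbouring gene. Another shared region, chr11:46382919-46383519, lay in the growth factor gene MDK.

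DGKI, the other type IV gene, is much longer (a span of 465938 bp) and had no strong start. Its 4 listed starts lie within 1 kb of each other at the upper end of the span, and before them the GC content was 68.8% to 74.0%. Of the 6 libraries, 2 had a peak over the 300 base window of the fourth start, a height of 2 in control replicate 1 and of 3 in control replicate 3, and 0 had one over the other 3 windows. The first of these windows is shown as a GC-rich window that no peak overlapped (chr7:137846975-137847224, minus strand), and it holds no match to the motifs searched.
DGKI start 1: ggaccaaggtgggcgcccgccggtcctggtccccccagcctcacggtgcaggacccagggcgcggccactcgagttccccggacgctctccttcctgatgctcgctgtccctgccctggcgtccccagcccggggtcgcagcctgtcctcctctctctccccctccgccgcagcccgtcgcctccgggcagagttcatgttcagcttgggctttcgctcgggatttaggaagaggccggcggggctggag
The tallest DGKI region was far inside the gene, chr7:137592286-137592645. Its heights were 11 and 10 in silenced replicates 1 and 2, against 8, 7 and 13 in the controls, with no peak called in silenced replicate 3. Only 1 of the 74 DGKI regions, chr7:137656300-137656613, was called in all 6 libraries, with heights of 3 to 8. That share is 1.35%, beside 7.35% over all regions of the series.

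Among the type I genes, DGKA had the most accessible window. Its first start, at position 55927316 of chromosome 12, is shared territory: the region chr12:55926718-55927491 overlaps PYM1, whose protein acts on the exon junction complex and which has a start of its own within 1 kb. Heights there were 22, 29 and 13 with silencing, against 22, 24 and 27 in the controls. The 250 bases before this start held 2 ETS cores and 2 GC boxes, where 3.39% of all windows held an ETS core. A region at the second start, chr12:55927593-55928267, was lower, with heights of 6 to 18 over the 6 libraries.

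The tallest DGKA region was at neither start but inside the gene, chr12:55940027-55940772, 4019 bp from the nearest listed start. Its heights were 45, 58 and 29 with silencing, against 52, 52 and 42 in the controls. It ranked at the 95.0 ± 2.2 percentile (SD, n = 3) with silencing and at 94.7 ± 2.17 (SD, n = 3) without, so the intragenic site was among the strongest of all shared regions in every library. The third to the fifth DGKA start had no peak over their 300 base windows. A region 314 bp from the third start, chr12:55930778-55931096, was called in every library except silenced replicate 3, with heights of 14 to 18.

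DGKG had a weak peak at its start in 1 library and a strong site inside the gene. A single peak of height 4, in silenced replicate 1, overlapped the window of its one listed start, and the 250 bases before it are 66.4% GC and hold 1 GC box (chr3:186362235-186362484, minus strand). The sequence is shown as another GC-rich start with little signal.
DGKG: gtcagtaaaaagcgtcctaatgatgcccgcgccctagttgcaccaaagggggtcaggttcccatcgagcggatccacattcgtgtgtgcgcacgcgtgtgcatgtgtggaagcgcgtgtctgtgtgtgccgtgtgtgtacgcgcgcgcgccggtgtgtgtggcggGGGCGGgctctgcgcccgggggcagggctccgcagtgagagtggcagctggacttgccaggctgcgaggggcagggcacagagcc
The intragenic region chr3:186259527-186259949, 102285 bp from that start, had heights of 41, 48 and 20 with silencing, against 30, 46 and 51 in the controls. It ranked at the percentile of 90.1 ± 3.56 (SD, n = 3) with silencing and at 90.6 ± 4.37 (SD, n = 3) without. The DGKG, DGKA and DGKE regions were the 3 of the 27 shared DGK regions whose median percentile over the libraries was above 90. The median over all 27 was 39.0.

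DGKB, the third type I gene and the longest of the family (829810 bp), was nearly empty of repeatable sites. Of its 41 regions, 35 (85.4%) came from 1 library alone and 1 (2.44%) was common to all 6. Over all regions of the series these shares were 74.1% and 7.35%. That one, chr7:14457652-14458168, lies 383282 bp from the nearest listed start and had heights of 9, 3 and 8 with silencing, against 7, 7 and 8 in the controls. At the starts, 1 peak of height 3 was called, in silenced replicate 3. The 250 bases before the first listed DGKB start are shown as an AT-rich contrast to the sequences above, with 37.6% GC, 0 GC boxes and 2 CCAAT boxes (chr7:14903657-14903906, minus strand).
DGKB start 1: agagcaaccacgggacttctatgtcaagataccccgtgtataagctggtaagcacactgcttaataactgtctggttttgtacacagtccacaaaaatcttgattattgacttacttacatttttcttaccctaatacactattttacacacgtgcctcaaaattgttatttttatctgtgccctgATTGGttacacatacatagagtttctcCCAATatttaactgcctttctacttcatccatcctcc
The windows of the 3 DGKB starts lacked a peak in all 6 libraries.

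The type II genes DGKD and DGKH had several shared regions each. For DGKD the first start, at position 233354494 of chromosome 2, carried a region (chr2:233354176-233354521) called in every library except silenced replicate 3. Its heights were 10 and 10 in silenced replicates 1 and 2, against 7, 13 and 7 in the controls. The third start, at 233419212, had a region in all 6 (chr2:233418725-233419461), with heights of 16, 23 and 5 with silencing, against 12, 18 and 25 in the controls. In each of the 5 libraries with both regions, the third start was the taller.

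The sequences before these DGKD starts differ in composition, 77.2% GC with 9 GC boxes before the first and 53.6% with 0 before the third, and are shown for that contrast.
DGKD start 1: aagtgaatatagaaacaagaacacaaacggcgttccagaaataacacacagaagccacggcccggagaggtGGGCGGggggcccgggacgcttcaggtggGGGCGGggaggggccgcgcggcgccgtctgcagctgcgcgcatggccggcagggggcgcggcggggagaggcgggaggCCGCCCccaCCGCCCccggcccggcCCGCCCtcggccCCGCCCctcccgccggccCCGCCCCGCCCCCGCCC
DGKD start 3: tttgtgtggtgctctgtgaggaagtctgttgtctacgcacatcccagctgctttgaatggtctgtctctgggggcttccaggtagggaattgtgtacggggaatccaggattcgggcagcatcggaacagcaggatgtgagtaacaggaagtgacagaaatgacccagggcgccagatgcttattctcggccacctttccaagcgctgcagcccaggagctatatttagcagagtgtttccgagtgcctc
They are chr2:233354244-233354493, plus strand, and chr2:233418962-233419211, plus strand. The tallest region of the DGKD window was at neither start. It lay 3360 bp before the first one (chr2:233350676-233351134), with heights of 29, 38 and 17 with silencing, against 27, 33 and 31 in the controls. Of the 6 DGKD regions shared by all libraries, 4 lay within the span away from the starts.

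DGKH was accessible at both listed starts. The first, at position 42040070 of chromosome 13, had heights of 19, 30 and 7 with silencing, against 17, 21 and 23 in the controls. The second, at 42048648, lay in the widest shared region of the family, 2343 bp after merging (chr13:42047417-42049759), with heights of 17, 21 and 8 with silencing, against 17, 21 and 19 in the controls. Between them, chr13:42041007-42042100 reached 19, 23 and 13 with silencing, against 18, 31 and 29 in the controls. In the 3 regions silenced replicate 3 was the lowest library, as it was in 22 of the 27 shared DGK regions by height. By percentile it was the lowest in 6 of 27.

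DGKQ, the type V enzyme, is the shortest gene of the set (14683 bp). A region at the upper end of its span, chr4:973450-973823, had heights of 29, 29 and 5 with silencing, against 35, 27 and 20 in the controls. By percentile, silenced replicate 3 lay at 13.1 here, against 48.0 to 77.6 in the other libraries. The region next to it, chr4:972596-973259, was called in every library except silenced replicate 3, with heights of 8 to 21.

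**Figure D2:**
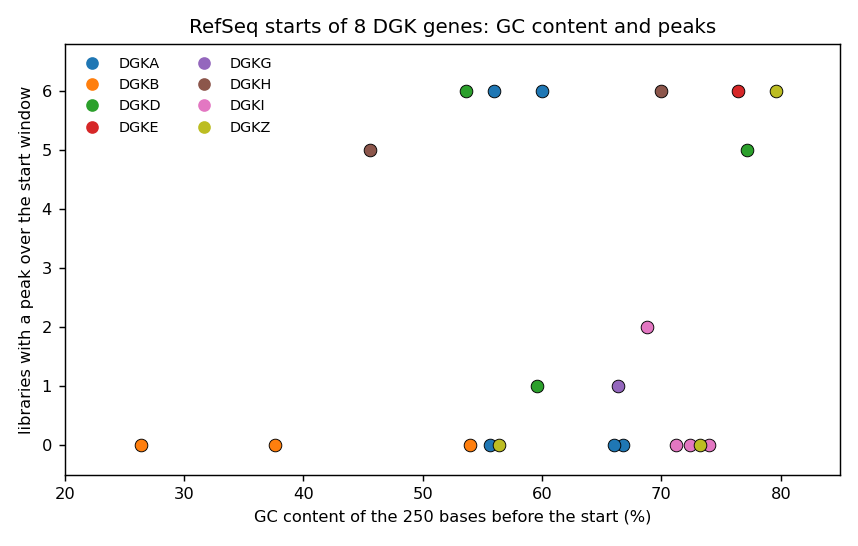
The x axis gives the GC content (%) of the 250 bases before each of the 22 RefSeq starts of 8 DGK genes, the y axis the number of libraries with a peak over the 300 base window from 250 bases before to 50 after the start, and colours the genes. Starts with a GC content of at least 60% appear both at 0 and at 6 libraries.

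GC-rich starts of the family were found both with and without a peak. Of the 13 starts with at least 60% GC, 4 had a peak over the window in all 6 libraries and 6 in 0. Over all 12597 such starts of protein-coding genes, 61.5% had a peak in all 6 libraries and 19.6% in 0. The 6 without a peak are 3 DGKI starts whose windows overlap, the fourth and the fifth DGKA start and the first DGKZ start. Of the 3 starts under 50% GC, 1 had a peak in any library, the first of DGKH (45.6% GC, 5 libraries). Among the other motifs searched, 1 of the 22 windows held a TEAD core and 1 a TATA box, both the third DGKB start, and 0 held an AP-1 or NRF1 match. In all windows these motifs were found in 11.9%, 10.8%, 6.59% and 1.02%.

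Counted per length, the windows ranged from dense to sparse. The peaks per 100 kb, as the median over the 6 libraries, were 11.8 for DGKA and DGKZ, 11.5 for DGKQ, 11.3 for DGKD and 10.8 for DGKE. They were 7.02 for DGKG, 5.92 for DGKH, 4.01 for DGKI and 0.941 for DGKB. The median over 20033 protein-coding gene windows was 7.94 (quartiles 5.05 and 10.8), and over the 3356 with a span of at least 100 kb it was 6.06. DGKB lay at the 1.52 percentile of these long genes, DGKI at 25.9, DGKH at 48.0, DGKG at 62.8 and DGKD at 98.0. The neighbours in the order DGKA, DGKZ, DGKQ, DGKD and DGKE overlapped in their library values, whereas every library had fewer peaks per 100 kb in DGKB than in DGKI. In control replicate 2 these 2 values were close, 0.588 in DGKB and 0.617 in DGKI, from 5 and 3 peaks.

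DGKB and DGKI, the sparsest windows, also had the largest shares of low peaks. In DGKB 81.5% of the peaks and in DGKI 77.7% had a height under 4. In DGKG and DGKH it was 37.5% and 37.8%, in DGKE 35.5%, in DGKD 17.4% and in DGKA 11.4%. DGKQ and DGKZ had 1 such peak each (4.35% and 1.96%). Of all 315 regions, 232 (73.7%) came from 1 library alone and 27 (8.57%) were common to all 6, beside 74.1% and 7.35% over the 507440 regions of the series. Within the family the share called in all 6 ran from 1.35% in DGKI to 44.4% in DGKA. Of the 27 shared regions, 8 lay at a listed start, 1 at the DGKQ span end, 14 elsewhere in a gene span and 4 in the 10 kb flanks.

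**Figure D3:**
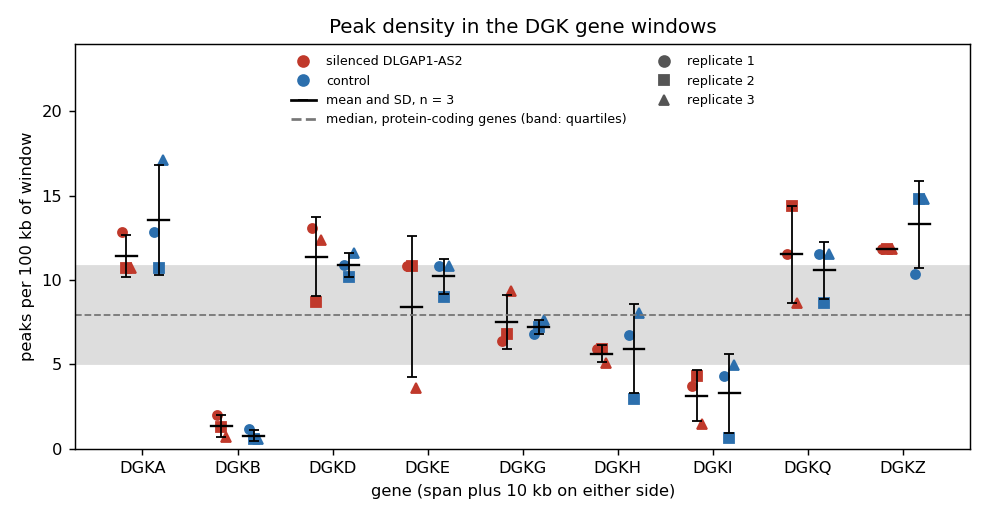
The y axis gives peaks per 100 kb of window for each gene on the x axis, with one symbol per library (red, silenced; blue, control; the symbol shape is the replicate), a black bar for the mean and whiskers for the SD (n = 3). The dashed line and band are the median (7.94) and quartiles over protein-coding genes, and the 2 groups overlap for each of the 9 genes.

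The comparison of silenced with control cells asked whether accessibility around the DGK genes moved with DLGAP1-AS2. The number of peaks in a gene window did not pass the test for any of the 9 genes. DGKB had 17, 11 and 6 peaks with silencing, against 10, 5 and 5 in the controls, the largest difference among the 9 on the log2 scale. DGKE had 6, 6 and 2 against 6, 5 and 6, and DGKI 18, 21 and 7 against 21, 3 and 24. In DGKI the spread within each group was wider than the difference between their means.

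The test was limma on log2 of the peaks per 100000 peaks of the library plus 1, fitted over 45708 genes with a mean of at least 1 peak per library, and adjusted by the Benjamini-Hochberg method. The difference for DGKB was 0.51 (SE 0.32) on this log2 scale, silenced minus control, with an adjusted p of 0.999 in limma. For DGKE it was −0.42 (SE 0.32) and for DGKA −0.28 (SE 0.30), also with an adjusted p of 0.999. The estimate was above 0 for 2 genes (DGKB and DGKI) and below 0 for 7, with a median of −0.07 beside −0.05 over all genes tested. Of all genes 0 passed at an adjusted p under 0.05 (a background of 0%), and 3.35% had an unadjusted p under 0.05, a mark that 0 of the 9 DGK genes reached. The groups did not overlap in 0 of the 9 genes, beside 7.16% of all genes. The two-sided exact permutation test on single genes, which cannot go below 0.1 with 3 libraries against 3, gave 0.3 to 1.

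The signs for DGKB and DGKI turned under a height limit, but not under the 2 other restrictions that drop weak peaks. With lists of equal length DGKB was 0.075 and DGKI 0.40. With peaks at an FDR of at most 1e-05 DGKI was 0.46, and DGKB was not tested. With only peaks of a height of at least 4, the DGKB difference was −0.42 and the DGKI difference −0.50, and those of DGKA, DGKD, DGKH, DGKQ and DGKZ moved from below to above 0. That restriction also moved the median of all genes from −0.05 to 0.07. Without control replicate 2, whose list is short of low peaks, the DGKI difference turned from 0.11 to −0.47. The part of depth in these values was not tested. The 9 windows together held 106, 98 and 82 peaks with silencing, against 101, 69 and 110 in the controls. As a share of each list that was 0.0638% ± 0.00481 (SD, n = 3) with silencing and 0.0670% ± 0.00823 (SD, n = 3) without.

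**Figure D4:**
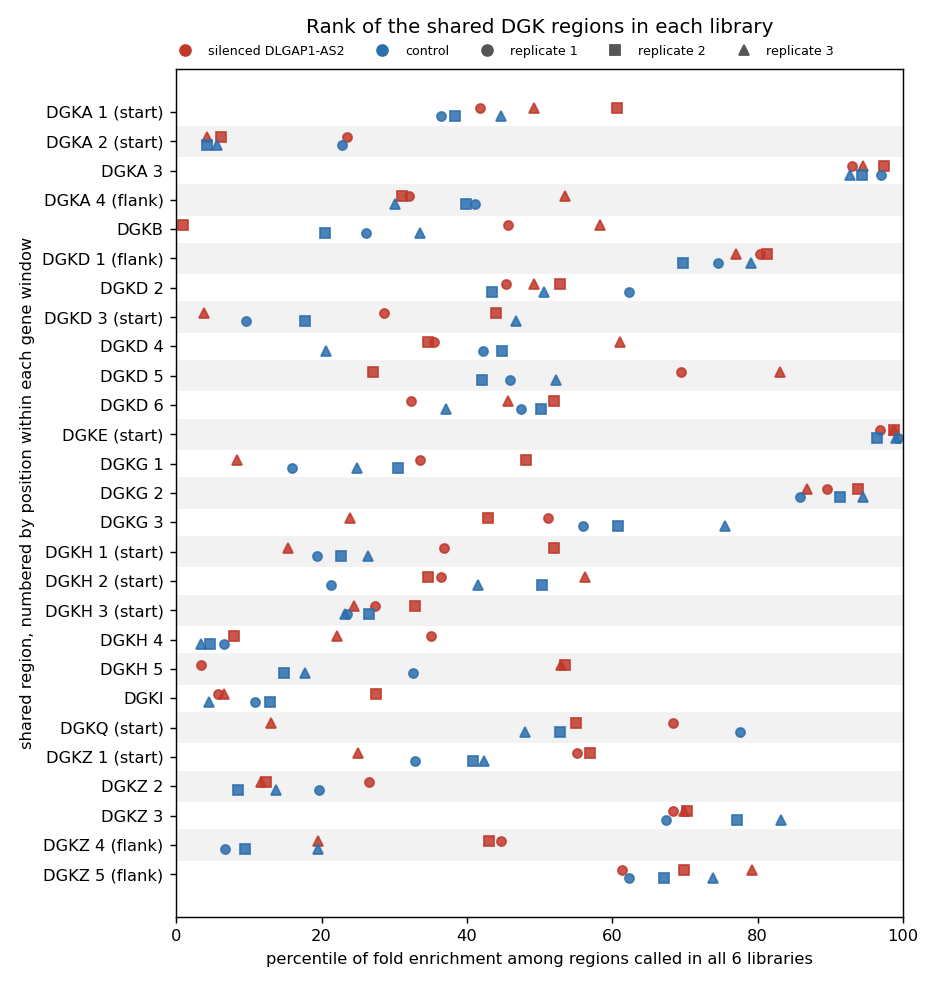
Each row is one of the 27 DGK regions called in all 6 libraries, numbered by position within its gene window, and the x axis is the percentile of its fold enrichment among all regions called in the 6 libraries (100 is the strongest). Red symbols are silenced and blue control libraries, with the replicate as the shape. DGKE, the third DGKA region and the second DGKG region have the 3 highest medians, and in 3 rows (the third of DGKG, the fourth of DGKH and the fourth of DGKZ) the 2 groups do not overlap.

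At the 27 shared regions the ranks of silenced and control libraries were compared with limma on normal scores, over all 37284 shared regions. None of the 27 passed (0 of all regions did, 0%), and the smallest adjusted p among them was 0.963 in limma. Of the 27, 18 had a difference above 0 (silenced ranked higher) and 9 below, beside 50.9% above 0 over all shared regions. The median was 0.11 score units, beside 0.01 over all shared regions. The typical SE of a single region was 0.34. At an unadjusted p under 0.05 there was 1 of 27, beside 4.68% of all shared regions. The groups did not overlap in 3 of 27, beside 10.2% of all.

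These 3 regions are given as values. The DGKG region chr3:186277534-186277891, inside the gene, ranked at the 51.2, 42.8 and 23.9 percentile with silencing, against 56.0, 60.7 and 75.5 in the controls. The difference was −0.66 score units (SE 0.30), the smallest p of the 27 regions but an adjusted p of 0.963 in limma, with all silenced libraries below all control libraries. The DGKH region chr13:42110534-42110964 ranked at 35.0, 7.93 and 22.1 with silencing, against 6.64, 4.70 and 3.39 in the controls, a difference of 0.81 (SE 0.44), with an adjusted p of 0.963 in limma. Its heights were 4 to 9 over the libraries. The median height of a list was 3 in silenced replicate 3, 8 in control replicate 2 and 4 in each of the others.
Last was the MDK region at the far side of DGKZ, at 44.7, 43.0 and 19.6 with silencing, against 6.74, 9.49 and 19.5 in the controls. It differed by 0.83 score units (SE 0.40), with an adjusted p of 0.963 in limma, and silenced replicate 3 stood next to control replicate 3. The DGKH and MDK regions were picked with their values in view.

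None of the 9 shared regions at a start or at the DGKQ span end passed, with adjusted limma p-values of 0.965 to 0.999. The score differences were 0.27 (SE 0.30) and 0.02 (SE 0.47) at the first and the second DGKA start, −0.06 (SE 0.47) for DGKD, −0.07 (SE 0.22) for DGKE, 0.31 (SE 0.38) and 0.11 (SE 0.36) at the first and the second DGKH start, 0.14 (SE 0.34) for the region 937 bp after the first, −0.43 (SE 0.37) for DGKQ and 0.16 (SE 0.33) for DGKZ. The largest of these in size, that of DGKQ, was 0.040 without silenced replicate 3. In data simulated from the spread of all 37284 shared regions, 0 of 200 regions shifted by 1 score unit passed and 136 of 200 shifted by 2 units did. The 9 differences above are estimates, all below 1 unit in size, and their true size is not known. As shifts of 1 unit were not recovered, the test cannot decide whether these regions shifted by 1 unit or less.

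A single DGK region split the groups by presence alone. It lay inside DGKB (chr7:14717797-14718070) and was called in the 3 silenced libraries, with a height of 3 in each, and in 0 of the controls. That is 1 of 315 regions, beside 0.130% of all regions of the series, and 0 of 315 were called only in the control libraries, beside 0.200%. A height of 3 is among the lowest in the lists, and with peaks of a height of at least 4 the count was 0. The region was singled out after its values were seen.

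The genes that supply or use the same lipids were counted in the same way, with span ends where no start is listed. Beside them stands the 62.6% of protein-coding genes with a listed start that had it covered in all 6 libraries. That share holds no genes judged by span ends, such as DGAT1 and DGAT2, and no background was computed for those. None of the genes counted had a covered start in all 3 libraries of a group and in 0 of the other. PLCB2 had a covered start in 1 silenced and 3 control libraries, and PLPP2 in 2 and 3. For UNC13A it was 1 and 2, and for AGPAT3 1 and 1. PLCE1 had a covered start in 1 silenced library only, and RASGRP4 in 1 control library only. Those named here were picked with their values in view. A list of 18 genes held phospholipases D, acyltransferases, lipins, lipid phosphate phosphatases and DGKK. Of these 18, 15 had a covered start in all 6 libraries and 1, GPAT2, in 0. Of 10 phospholipases C, which make diacylglycerol from phosphoinositides, 7 did and PLCD1 had none. Of 18 diacylglycerol-binding proteins, which include the protein kinases C and D, 15 did and RASGRP2 had none. All 4 of CDS1, CDS2, DGAT1 and DGAT2, which turn phosphatidic acid or diacylglycerol into other lipids, had one in all 6 libraries. DGKK, the remaining member of the family in the gene table, had a covered start in all 6.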

How the data were processed

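ATAC-seq peak lists of 6 NCI-H1703 libraries were analysed, 3 with DLGAP1-AS2 silenced and 3 controls, grouped by the treatment label. Trimmomatic 0.36, Bowtie2 2.2.6, Picard 2.8.2, MACS2 2.1.1, bedtools 2.25.0 and the build GRCh38 are named in the submitters' processing notes, with no role or parameter. Whether reads were shifted for the transposase offset, and how duplicates and mitochondrial reads were handled, is not given in the sources used here. The authors deposited one list per library. Per the file headers, each peak has a fold enrichment (a ratio over background), a p-value and an FDR, and a pileup signal, called the height. Deposited p-values were at most 0.00987 and peaks at least 200 bp long.

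Gene spans and starts came from RefSeq tables of GRCh38.p14. All 9 genes matched by symbol, and 8 had listed starts. Peaks of the autosomes and sex chromosomes were counted in windows (overlap of at least 1 bp) and merged over libraries. Background coverage is the smallest (height + 1) / fold enrichment − 1 of a list. Tests used limma 3.58.1 in R 4.3.3 with a mean-dependent prior, over all genes or all shared regions, and Benjamini-Hochberg adjustment at 0.05. The procedure was tested on simulated data: of 200 genes with a log2 peak density shifted by 1, 0 of 200 were recovered, and 110 at a shift of 2, over 45708 genes. Members, gene lists and tests were chosen with earlier results of these data known, and motifs after the files were seen. Named by rule were all 9 genes, in each window the region at a start and the one with the highest median height, regions of one group only with a height of at least 4, and the region with the smallest p. Other regions were described after their values were seen. Alternatives changed the peak threshold, list length, window, overlap, pseudocount, filter, rank measure and replicates. Files give no read totals, so depth is unknown.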

Additional observations from a re-analysis of the deposited data

How the results depend on the processing

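No DGK gene or region passed the threshold under any alternative run. Over all genes, 2 passed the density test with peaks at an FDR of at most 1e-05 and 173 with lists of equal length, none of them a DGK gene, beside 0 in the test reported. An FDR of at most 1e-05 moved the median of all genes from −0.05 to 0.18, left too few peaks to test DGKB, and put DGKD at 0.039 and DGKH at 0.039. With heights of at least 4, DGKA was 0.27, DGKB −0.42, DGKD 0.13, DGKH 0.17, DGKI −0.50, DGKQ 0.38 and DGKZ 0.0042. With lists of equal length DGKH was 0.24 and DGKQ 0.20, and with 50 kb flanks DGKH was 0.13. Ranked by p-value, the tallest region was 0.014 in DGKG and −0.030 in DGKZ, and the DGKH start −0.027. Ranked by height, the tallest was 0.016 in DGKB, 0.028 in DGKG and −0.032 in DGKZ, and the DGKH start −0.11. The silenced-only region count was 0 at the FDR limit, the height limit and equal length. The difference in genes with a start peak (silenced minus control) was 0.333, and −1 at the FDR limit. The cause of these changes was not tested.

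Leaving out each library in turn gave density differences of −0.43 to −0.16 for DGKA, 0.25 to 0.73 for DGKB, −0.56 to −0.15 for DGKE, and, changing sign, −0.27 to 0.17 for DGKD, −0.37 to 0.20 for DGKG, −0.20 to 0.068 for DGKH, −0.47 to 0.45 for DGKI, −0.076 to 0.10 for DGKQ and −0.52 to 0.091 for DGKZ. Start regions ranged from 0.012 to 0.42 (DGKZ) and, changing sign, −0.41 to 0.40 (DGKD), −0.27 to 0.060 (DGKE), −0.090 to 0.30 (DGKH) and −0.75 to 0.040 (DGKQ), and tallest regions from −0.10 to 0.15 (DGKA), −0.60 to 0.66 (DGKB), −0.17 to 0.089 (DGKG) and −0.056 to 0.20 (DGKZ). Silenced-only regions numbered 1 to 4 (4, 2 and 3 without silenced replicates 1, 2 and 3), and control-only regions 0 to 2 (2 without control replicate 2).

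Whether same-numbered libraries were prepared as pairs is not known. Deviations of same-numbered libraries correlated at 0.10, −0.17 and −0.16 for density, which with 3 libraries per group cannot decide it. With the replicate number as a block, 0 genes and 0 regions passed, as without it. In this balanced design the block cannot move a difference (DGKB is 0.51 in both fits), only its error.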
